A study of Homo sapiens with 11 samples.

Results

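The ribonuclease A (RNase A) family genes are 6 of the 58037 genes in the deposited count table: RNASE1, RNASE2, RNASE3, RNASE4, RNASE6 and ANG. They were taken as listed family symbols of the cluster on chromosome 14, each matched to 1 Ensembl identifier, and they were followed across 4 groups of libraries. The family was chosen by measured values: the CPM and fold changes of RNASE1 with FHD-286, among the largest falls in both lines, were known when it was selected. For that reason the members' own responses to FHD-286 are given below as values and fitted changes, with no p-value, and nothing is read from them. Where groups are said not to overlap, the share of all genes so separated was not computed, so this is no separate evidence. Tests are given for comparisons between the lines, and for genes outside the family, whose lists were also chosen with earlier results of these data known. For RNASE1 the comparisons between the lines use CPM that were known at selection. Its p-values there are a description and not independent support. The same holds for every member in the difference of the FHD-286 effects between the lines, which is built from the members' own responses.

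RNA from human acute myeloid leukaemia (AML) lines was sequenced as paired ends in 11 libraries. For OCI-AML3 there were 3 control libraries and 3 from cells given 100 nM FHD-286 for 16 h. For OCI-AML3-FLT3-ITD there were 3 controls and 2 given the same dose for the same time. OCI-AML3 is an established AML line. The name of OCI-AML3-FLT3-ITD refers to FLT3, a cytokine receptor with kinase activity, and to an internal tandem duplication within it. The labels do not say how that line was made or whether it is 1 clone. FHD-286 blocks the motor subunits BRG1 and BRM of BAF, a complex that remodels chromatin. All groups were grown in RPMI medium with 20% fetal bovine serum, and the labels do not say whether the controls received a vehicle. Separate cultures are not stated for the replicates, so the p-values reflect the spread from library to library, which may be technical.

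RNase A family members are small secreted enzymes that cut RNA, and several act in host defence. RNASE1 is the pancreatic-type enzyme, which endothelial cells also release into blood. RNASE2 encodes the eosinophil-derived neurotoxin and RNASE3 the eosinophil cationic protein, both stored in granules of myeloid cells. RNASE6 encodes an antimicrobial ribonuclease of monocytes and macrophages. ANG encodes angiogenin, which acts on transfer RNA, and shares its promoters and first exons with RNASE4. The ribonuclease inhibitor, encoded by RNH1, binds these enzymes in the cytosol and blocks them.

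Total counts ran from 58397190 to 79172389 per library, so 3 counts, taken here as the detection floor, correspond to between 0.0366 and 0.0548 CPM, the count scaled to library size. FLT3 lay between 39.24 and 43.29 CPM in the OCI-AML3 libraries and between 169 and 202.9 CPM in the OCI-AML3-FLT3-ITD libraries, with 1 exception. The library whose label reads OCI-AML3-FLT3-ITD control replicate 2 had 53.36 CPM. Its log CPM correlated at 0.957 and 0.960 across genes with the other controls of its line, against 0.993 between those. It is kept in its labelled group, and results that rest on it are given with and without it. Of 8 myeloid leukaemia markers, none was at 0 in every library of a group, and their summed level was 835.7 to 937.1 CPM in OCI-AML3 controls, 349.8 to 375.5 CPM in treated OCI-AML3, 631.7 to 735.8 CPM in OCI-AML3-FLT3-ITD controls and 157.5 to 194 CPM in treated OCI-AML3-FLT3-ITD. Most markers of the labelled cell type were thus detected in every group. Of the 8, 1 was under 1 CPM in each control group and 3 in each treated group. CD34 averaged 0.01739 CPM in OCI-AML3 controls, below the floor. The summed level was lower with FHD-286. Of 7 tested, 5 were called lower (as defined below) in OCI-AML3 and 6 in OCI-AML3-FLT3-ITD, where 21.5% and 14.9% of all genes were lower. ANPEP was called higher in both lines. The part of these markers in the values of the RNase genes was not tested. Fitted log2 changes come from 1 edgeR model over all 11 libraries with an approximate standard error (SE), and a gene is called where its p, adjusted over all genes tested, is under 0.05. With library totals in place of composition-corrected (TMM) scaling, 63% rather than 47.9% of the genes called for FHD-286 in OCI-AML3 were higher, 64.1% rather than 51.3% in OCI-AML3-FLT3-ITD and 67.7% rather than 51.8% between the control lines. This scaling moved the median log2 change of all genes in OCI-AML3 from 0.02 to 0.17 and that between the control lines from 0.01 to 0.11. Upper-quartile scaling gave 62.6% between the control lines. For the difference between the FHD-286 effects it gave 45.2% rather than 59.1%, with a median of -0.11 rather than -0.01. No member changed direction under any of these scalings.

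The members lie within 272.3 kb of chromosome 14, from 20684100 to 20956436 on GRCh38 (GENCODE 29). RNASE4 (ENSG00000258818.3, 20684100 to 20701215) and ANG (ENSG00000214274.9, 20684177 to 20698971) overlap on the plus strand. RNASE6 (ENSG00000169413.2, 20781051 to 20782467, plus strand) starts 82.1 kb beyond ANG. RNASE1 (ENSG00000129538.13, 20801228 to 20803278) lies 18.8 kb further and is the only member on the minus strand. RNASE3 (ENSG00000169397.3, 20891399 to 20892348, plus strand) and RNASE2 (ENSG00000169385.2, 20955452 to 20956436, plus strand) follow, with 63.1 kb between them. All 6 are protein-coding genes.

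RNASE2 and RNASE3 are close copies, and their sequences are shown because their read counts moved apart under FHD-286. The DNA before their starts is nearly the same where it aligns, but the alignment has 34 columns in gaps. Whether these differences bear on the counts was not tested. The bases before the annotated transcripts, from RefSeq on GRCh38.p14, are printed on the plus strand with the match to the C/EBP motif (TTGCNNAA) in capitals. They span chr14:20955237-20955451 for RNASE2 and chr14:20891135-20891384 for RNASE3.
RNASE2: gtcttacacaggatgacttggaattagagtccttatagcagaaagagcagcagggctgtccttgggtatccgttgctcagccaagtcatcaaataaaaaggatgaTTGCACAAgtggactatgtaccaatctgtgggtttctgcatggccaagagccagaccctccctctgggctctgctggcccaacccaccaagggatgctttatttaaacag
RNASE3: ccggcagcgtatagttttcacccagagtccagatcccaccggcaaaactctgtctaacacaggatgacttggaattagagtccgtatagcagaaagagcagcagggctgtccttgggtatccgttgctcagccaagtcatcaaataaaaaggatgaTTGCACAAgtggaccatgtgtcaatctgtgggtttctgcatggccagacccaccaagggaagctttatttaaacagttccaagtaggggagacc
In the 250 bases upstream of the RefSeq starts, 192 of 199 aligned positions were identical (96.5%), with 34 further columns in gaps. The capitals are the same 8 bases in both genes, 145 bases before the RefSeq start of RNASE2 and 94 bases before that of RNASE3. Searched on both strands, TTGCNNAA occurs in 9.05% of 35116 promoter windows of the same length. The other members had none in their windows.

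The remaining motifs were searched in the same way in the 10 RefSeq windows of the 6 members, all of which matched the table. The ETS motif AGGAAGT, found in 7.01% of all windows, occurred in RNASE6 alone of the members, 246 bases before its RefSeq start. The AP-1 motif TGANTCA (6.57% of windows) occurred only in RNASE1, 134 bases before the RefSeq start at 20802844. The RUNX motif TGTGGT (11%) occurred in RNASE1, 215 bases before the start, and in a window that ANG and RNASE4 share, 228 bases before the start. The GATA motif AGATAA (9.17%) and the TATA motif TATAAA (10.7%) had no match in the members' windows. The motifs do not overlap one another in these matches. Some RefSeq starts lie inside the gene spans given above. The span of RNASE1, on the minus strand, runs to 20803278, so both of its matches lie inside it. The RUNX match of ANG and RNASE4, with a RefSeq start at 20688764, also lies inside their spans. The RefSeq start of RNASE6 is 20781268 and its span begins at 20781051, so its window lies partly inside, but its match lies before the span. A match is a description of letters and says nothing of binding.

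The coding sequences of RNASE2 and RNASE3 were identical at 409 of 480 aligned bases (85.2%), against 58.6% to 65.1% for the other pairs of members. Columns in gaps are left out of these shares, 3 for RNASE2 and RNASE3 and 23 to 120 for the other pairs. The longest coding stretch shared by RNASE2 and RNASE3 is the start of both, coding bases 1 to 54. It is shown because reads inside it cannot be assigned to either gene.
RNASE2 and RNASE3: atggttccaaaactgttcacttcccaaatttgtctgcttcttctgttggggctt
The longest stretch shared by the transcripts is 67 bases. Of 706 windows of 50 bases in the RNASE2 transcript, 21 occur in RNASE3, and no window of 75 or 100 bases does. Read length was not stated in what was used here, and how many read pairs could be ambiguous was not tested. RNASE4 and ANG share 115 bases of transcript, and 72.6% of the exon length of RNASE4 and 61.4% of that of ANG overlap another annotated gene. Counts of RNASE4 and ANG are therefore uncertain in their split. They are also uncertain in their level, since whether reads in shared exons were counted is not known. The gene AL163636.2 (ENSG00000259171.1), whose exons all overlap those of other genes there, had 0 counts in every library.

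RNASE2 was the most abundant member in every library, and FHD-286 libraries held more of it. On a scale per exon length (CPM per kb), OCI-AML3 controls had 387.1 ± 14.67 for RNASE2, 49 ± 3.648 for RNASE1, 37.05 ± 2.885 for RNASE3, 22.27 ± 0.403 for RNASE6, 0.1779 ± 0.07472 for ANG and 0.01297 ± 0.01134 for RNASE4 (SD, n = 3). The order from RNASE2 down to RNASE4 held without overlap between neighbouring genes in that group. In treated OCI-AML3 the order changed below RNASE2: RNASE3 stood at 27.42 ± 1.263, RNASE6 at 1.718 ± 0.2844 and RNASE1 at 0.902 ± 0.1028 CPM per kb (SD, n = 3). Treated OCI-AML3-FLT3-ITD held 349.5 ± 31.11 for RNASE2, 8.824 ± 0.4694 for RNASE3, 1.12 ± 0.00992 for RNASE6, 0.3483 ± 0.009885 for ANG and 0.06535 ± 0.02365 for RNASE1 (SD, n = 2). There ANG, which was far below RNASE1 in OCI-AML3 controls, stood above it.

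**Figure D1:**
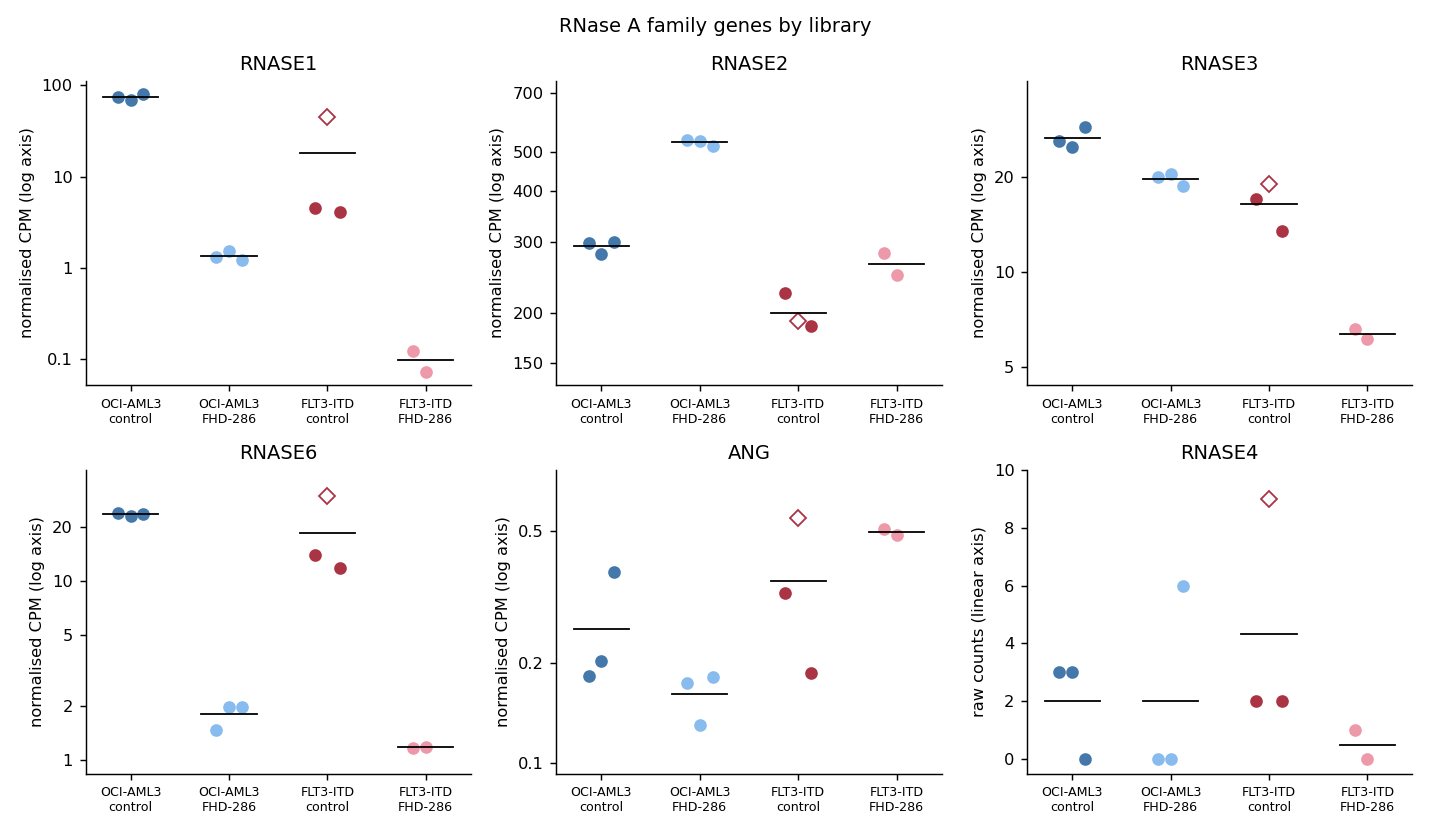
Each point is 1 library, black bars are group means, and the open diamond is replicate 2 of the OCI-AML3-FLT3-ITD controls. The vertical axes give TMM-normalised CPM on log axes with a range of their own per gene, except RNASE4, which is shown as raw counts on a linear axis. RNASE2 is the panel in which both treated groups lie above their controls, and RNASE1 runs from 79.26 down to 0.07322 CPM.

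RNASE1 had the widest range of the family. OCI-AML3 controls had 73.87, 68.27 and 79.26 CPM, and the treated libraries had 1.313, 1.531 and 1.231 CPM. OCI-AML3-FLT3-ITD controls had 4.52, 45.32 and 4.109 CPM in replicates 1, 2 and 3, and treated libraries had 0.1236 and 0.07322 CPM, which are 9 and 6 counts. The control groups and treated groups did not overlap in either line. Replicate 2 of the OCI-AML3-FLT3-ITD controls stood nearer to the OCI-AML3 controls than to its own group. The fitted log2 change with FHD-286 was -5.76 (SE 0.896) in OCI-AML3 and -7.50 (SE 1.354) in OCI-AML3-FLT3-ITD, which became -5.76 (SE 0.099) and -5.45 (SE 0.219) without that library. From highest to lowest the groups ran OCI-AML3 control, OCI-AML3-FLT3-ITD control, treated OCI-AML3 and treated OCI-AML3-FLT3-ITD, and no neighbours in that order overlapped. With all libraries, RNASE1 was not called between the control lines (edgeR adjusted p = 0.063) or between the treated lines (0.0723).

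RNASE6 followed a similar course from a lower start. OCI-AML3 controls had 23.95, 23.14 and 23.78 CPM, against 1.474, 1.998 and 1.996 CPM with FHD-286. OCI-AML3-FLT3-ITD controls had 14.01, 29.79 and 11.8 CPM, against 1.181 and 1.196 CPM with FHD-286. In both lines every treated library was below every control, and replicate 2 of the OCI-AML3-FLT3-ITD controls was the highest of all 11. The fitted log2 change was -3.69 (SE 0.322) in OCI-AML3 and -3.96 (SE 0.391) in OCI-AML3-FLT3-ITD, the latter -3.44 (SE 0.139) without that library. The spans of the control groups of the lines overlapped, while the treated OCI-AML3 libraries all lay above the treated OCI-AML3-FLT3-ITD libraries. This difference between the treated lines was not called with all libraries (edgeR adjusted p = 0.233).

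RNASE2 and RNASE3 went opposite ways. RNASE2 had 297.2, 279.6 and 300 CPM in OCI-AML3 controls and 536.6, 532.7 and 517.5 CPM with FHD-286. In OCI-AML3-FLT3-ITD it had 223.8, 190.1 and 185 CPM in controls and 280.4 and 247.2 CPM with FHD-286. All treated libraries exceeded the controls of their line. The fitted log2 change was 0.86 (SE 0.085) in OCI-AML3 and 0.40 (SE 0.094) in OCI-AML3-FLT3-ITD, and 0.37 (SE 0.085) in the latter without control replicate 2.

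RNASE3 had 26.13, 24.92 and 28.97 CPM in OCI-AML3 controls and 20.01, 20.48 and 18.73 CPM with FHD-286. In OCI-AML3-FLT3-ITD controls it had 17.06, 19.04 and 13.46 CPM, and treated libraries had 6.592 and 6.114 CPM. The treated libraries were below the controls in both lines, and those of OCI-AML3-FLT3-ITD were the lowest of all. The fitted log2 change was -0.43 (SE 0.124) in OCI-AML3 and -1.38 (SE 0.146) in OCI-AML3-FLT3-ITD, the latter -1.26 (SE 0.11) without control replicate 2.

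The balance between the copies differed accordingly. Reads of RNASE2 per read of RNASE3 numbered 11.4, 11.2 and 10.4 in OCI-AML3 controls and 26.8, 26 and 27.6 with FHD-286. In OCI-AML3-FLT3-ITD the ratio was 13.1, 9.98 and 13.7 in controls and 42.5 and 40.4 with FHD-286. The ratio needs no scaling between libraries, and the treated libraries lay above all controls in both lines. It is computed from the values that are described above and is no separate evidence.

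ANG and RNASE4 were near the detection floor. ANG had 10, 13 and 21 counts in OCI-AML3 controls, 13, 10 and 14 with FHD-286, 23, 38 and 15 in OCI-AML3-FLT3-ITD controls and 37 and 40 with FHD-286. By CPM the treated OCI-AML3 libraries (0.1742, 0.1297 and 0.1814) lay just below the controls (0.1827, 0.2031 and 0.3772), while the OCI-AML3-FLT3-ITD groups overlapped. Its fitted log2 change was -0.64 (SE 0.445) in OCI-AML3 and 0.50 (SE 0.435) in OCI-AML3-FLT3-ITD. RNASE4 had 3, 3 and 0 counts in OCI-AML3 controls, 0, 0 and 6 with FHD-286, 2, 9 and 2 in OCI-AML3-FLT3-ITD controls and 1 and 0 with FHD-286. It failed the filter on low counts and was not tested. No direction can be given for RNASE4 at these counts.

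Of the 6 members, 5 passed the filter. In OCI-AML3, 4 of those 5 were called with FHD-286 (RNASE2 higher, RNASE1, RNASE3 and RNASE6 lower), where 41.3% of all 18908 genes tested were called. In OCI-AML3-FLT3-ITD the same 4 were called in the same directions, where 30.5% of all genes were called. The median log2 change of the 5 was -0.64 and -1.38, against 0.02 and -0.02 over all genes. The OCI-AML3 count was 3 without control replicate 3, without treated replicate 3 or with library totals, where RNASE3 stood at -0.37, -0.37 and -0.28. The OCI-AML3-FLT3-ITD count was 3 without treated replicate 1 or in a fit of those 2 groups alone, where RNASE2 stood at 0.31 and 0.38. Since the family was chosen with these comparisons known, nothing is read from the counts. In these bulk samples fewer cells of a type and less RNA per cell cannot be told apart.

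**Figure D2:**
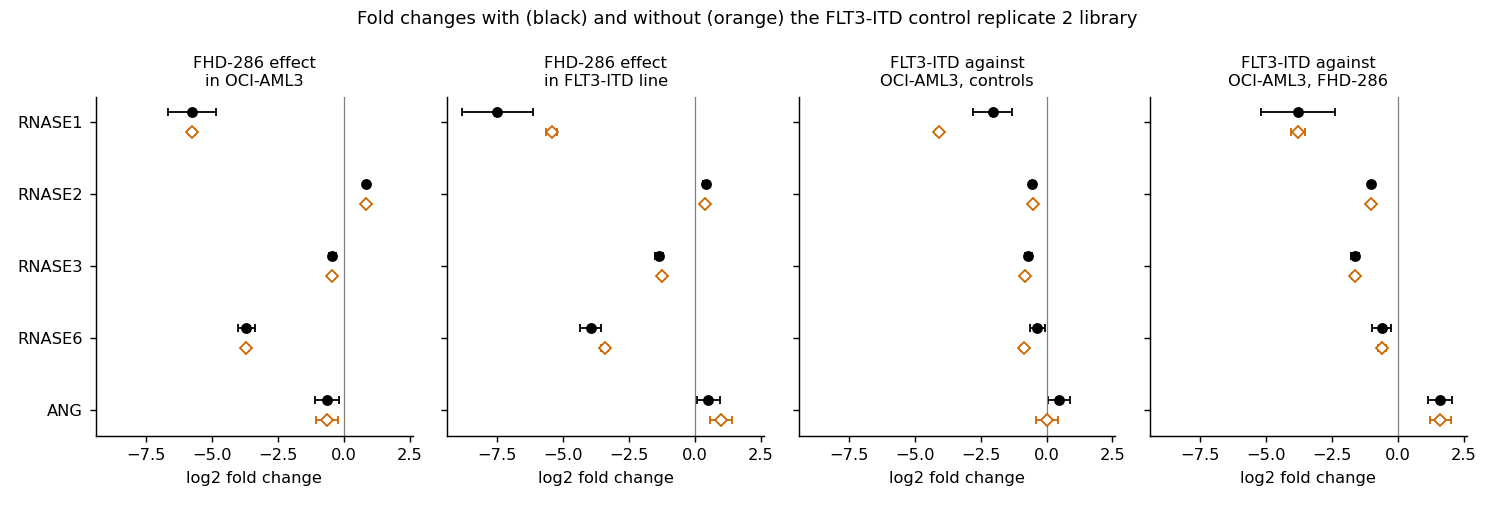
Points are fitted log2 fold changes and bars are 1 SE, for the 5 members that passed the filter in 4 comparisons. Black circles use all 11 libraries and orange diamonds leave out replicate 2 of the OCI-AML3-FLT3-ITD controls. RNASE1 has the widest bars with all libraries, and its value in the FLT3-ITD line moved from -7.50 to -5.45 without that library.

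RNASE2 made up more of the family's transcripts in treated libraries. It held 78.1% ± 0.559 of the summed CPM per kb of the 6 members in OCI-AML3 controls and 95.9% ± 0.122 with FHD-286 (SD, n = 3 each). In OCI-AML3-FLT3-ITD it held 83.7% ± 7.74 in controls (SD, n = 3) and 97.1% ± 0.115 with FHD-286 (SD, n = 2). The OCI-AML3-FLT3-ITD controls ran from 74.7% to 88.2%, the lowest being replicate 2. RNASE1 held 9.88% ± 0.343 in OCI-AML3 controls and 0.123% ± 0.0127 with FHD-286 (SD, n = 3 each). Merged exon length spans all annotated transcripts, 5 for RNASE1 (1506 bases) and 1 each for RNASE2, RNASE3 and RNASE6. The RNASE1 transcript used for its coding sequence has 878 bases. With that length the level per kb and the share of RNASE1 would be higher. The family sum was 495.6 ± 21 CPM per kb in OCI-AML3 controls and 730.7 ± 14.3 with FHD-286, and stood at 317 ± 34 and 359.8 ± 31.6 in OCI-AML3-FLT3-ITD controls and treated libraries (SD over the libraries of each group). The OCI-AML3-FLT3-ITD groups just missed each other, with a highest control of 336.8 and a lowest treated value of 337.5.

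**Figure D3:**
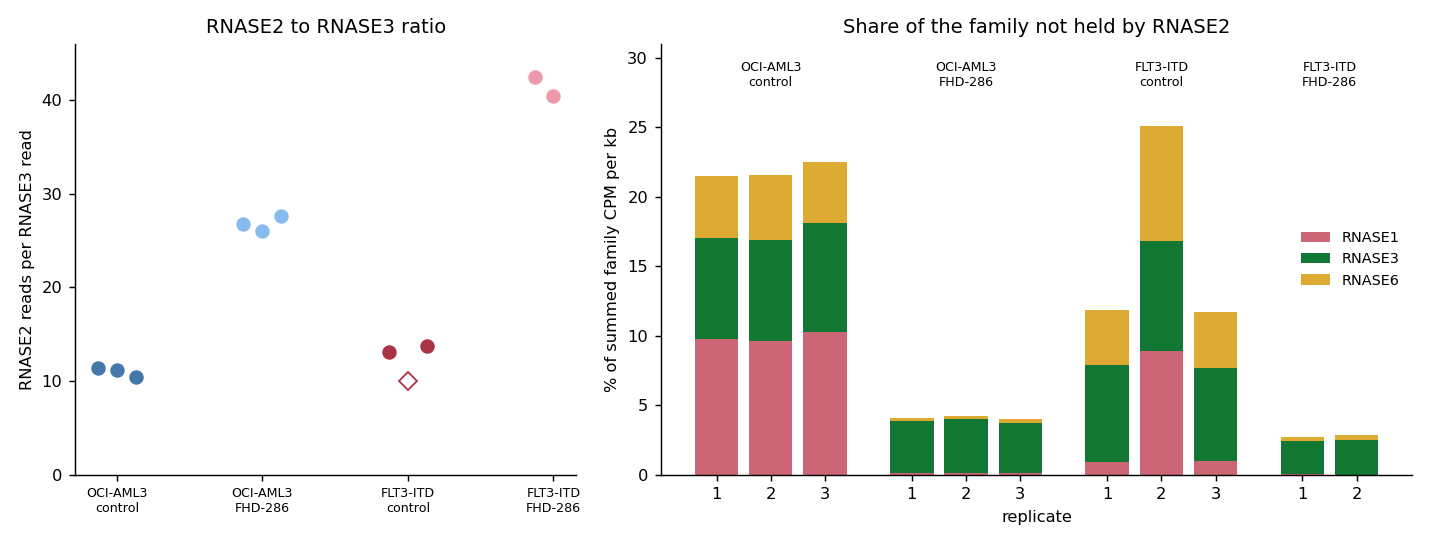
Left, reads of RNASE2 per read of RNASE3 in each library (linear axis from 0, open diamond as before). Right, stacked bars give the percent of the family's summed CPM per kb held by RNASE1, RNASE3 and RNASE6 in each library, the rest being almost wholly RNASE2. The ratio lies between 9.98 and 13.7 in controls and between 26 and 42.5 with FHD-286.

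Whether the response to FHD-286 differed between the lines was tested as the difference of the log2 changes (OCI-AML3-FLT3-ITD minus OCI-AML3). That difference is built from the members' own changes with FHD-286, which were known at selection. The members' p-values for it are a description and not independent support. RNASE3 passed, with a difference of -0.94 (SE 0.189, edgeR adjusted p = 0.0253), so it fell further in OCI-AML3-FLT3-ITD. It was 1 of 5 members called, where 3.36% of all genes were called, 1.98% higher and 1.38% lower. Without OCI-AML3-FLT3-ITD control replicate 2 the difference was -0.83 (edgeR adjusted p = 0.000212). The call was lost without OCI-AML3 control replicate 1 (adjusted p = 0.0783) or 2 (0.0727), without treated OCI-AML3 replicate 1 (0.0749), 2 (0.0809) or 3 (0.0633), and without treated OCI-AML3-FLT3-ITD replicate 1 (0.106) or 2 (0.115). The difference kept its sign in all 18 alternatives, between -1.07 and -0.83.

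The rise of RNASE2 was smaller in OCI-AML3-FLT3-ITD by 0.45 on the log2 scale (difference -0.45, SE 0.127), which missed the threshold with the settings used (edgeR adjusted p = 0.0869). With all libraries kept it passed with upper-quartile factors (adjusted p = 0.0264), library totals (0.0345), the stricter filter (0.0304) and DESeq2's Wald test (0.0118). It also passed without OCI-AML3-FLT3-ITD control replicate 2 (-0.49, edgeR adjusted p = 0.00334), as did RNASE3, where 17% of all genes were called and 7.39% were lower. RNASE1 gave a difference of -1.74 (SE 1.684, adjusted p = 0.62), and its sign turned without that library (0.31, SE 0.417, adjusted p = 0.696). RNASE6 likewise went from -0.27 (SE 0.451, adjusted p = 0.791) to 0.26 (SE 0.183, adjusted p = 0.399). No direction can be given for the difference in RNASE1 or RNASE6. ANG gave 1.14 (SE 0.622, adjusted p = 0.362), and 1.61 (SE 0.58, adjusted p = 0.0647) without the library.

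Between the control lines, RNASE2 and RNASE3 were lower in OCI-AML3-FLT3-ITD. The log2 difference was -0.55 (SE 0.085, edgeR adjusted p = 0.00177) for RNASE2 and -0.69 (SE 0.124, edgeR adjusted p = 0.00344) for RNASE3. These were 2 of 5 members, where 28% of all genes were called, 14.5% higher and 13.5% lower. All 3 OCI-AML3-FLT3-ITD libraries lay below all 3 OCI-AML3 libraries for both genes. The share of all genes separated in this way was not computed, so this is no separate evidence. RNASE1 differed by -2.04 (SE 0.74, adjusted p = 0.063), and RNASE6 by -0.35 (SE 0.284, adjusted p = 0.382).

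The values of RNASE1 and RNASE6 depended on 1 library. RNASE1 stood at 45.32 CPM in OCI-AML3-FLT3-ITD control replicate 2, against 4.52 and 4.109 CPM in replicates 1 and 3. Leaving that library out leaves 2 controls in its group. It also lowers the shared spread (common biological coefficient of variation) from 0.193 to 0.0652, on which the p-values below rest. Without OCI-AML3-FLT3-ITD control replicate 2, RNASE1 was lower by 17.1-fold (log2 -4.10, SE 0.102, edgeR adjusted p = 9.33e-18) and RNASE6 by 1.83-fold (log2 -0.87, SE 0.1, edgeR adjusted p = 3.17e-07). Then 4 of 5 members were lower, where 49.4% of all genes were called and 25.4% were lower. ANG did not pass in either case (log2 0.47, adjusted p = 0.428, and 0.01, adjusted p = 0.992). A fit without the filter on low counts also called RNASE1 (log2 -2.01, adjusted p = 0.00665).

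Between the treated lines, RNASE2 and RNASE3 were again lower in OCI-AML3-FLT3-ITD, by 2.00-fold (log2 -1.0, SE 0.098, edgeR adjusted p = 0.000121) and 3.11-fold (log2 -1.64, SE 0.148, edgeR adjusted p = 8.73e-05). ANG was higher (log2 1.61, SE 0.455, edgeR adjusted p = 0.0256), with 0.5081 and 0.4881 CPM against 0.1742, 0.1297 and 0.1814 CPM. These were 3 of 5 members, where 26% of all genes were called, 14.3% higher and 11.7% lower. The ANG call was lost without treated OCI-AML3 replicate 1 (adjusted p = 0.0663), 2 (0.0853) or 3 (0.0638), and without treated OCI-AML3-FLT3-ITD replicate 1 (0.12) or 2 (0.0994). The overlap of ANG with RNASE4 and with an antisense gene, AL163636.1, also leaves the source of these reads uncertain.

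RNASE1 and RNASE6 were lower in treated OCI-AML3-FLT3-ITD by -3.78 (SE 1.407) and -0.62 (SE 0.354) on the log2 scale, with edgeR adjusted p = 0.0723 and 0.233. Although no OCI-AML3-FLT3-ITD control enters these values, leaving out control replicate 2 narrowed the shared spread. The adjusted p was then 8.55e-11 for RNASE1 (log2 -3.79, SE 0.256) and 0.002 for RNASE6 (log2 -0.62, SE 0.151), and all 5 members were called, where 46.9% of all genes were. Leaving out OCI-AML3-FLT3-ITD control replicate 1 or 3 also brought RNASE1 under the threshold (adjusted p = 0.0464 and 0.0408).

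The remaining 7 genes of the family on chromosome 14 (RNASE7 to RNASE13) all failed the filter, with 0 to 4 counts per library. Besides the family, 36 protein-coding genes lay within 500 kb of the cluster, a set that includes these 7 and 5 olfactory receptor genes. Of the 36, 17 were tested. With FHD-286 in OCI-AML3, 10 were lower and 1 was higher, with a median log2 change of -0.45 against 0.02 over all genes, where 21.5% of all genes were lower and 19.8% higher. In OCI-AML3-FLT3-ITD 6 were lower and 1 was higher, with a median of -0.19 against -0.02 over all genes, where 14.9% were lower and 15.6% higher.

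PNP, the purine nucleoside phosphorylase gene, had a mean of 99.54 CPM in OCI-AML3 controls and 24.98 CPM with FHD-286 (log2 change -1.99, edgeR adjusted p = 9.93e-08). Its change in OCI-AML3-FLT3-ITD was -1.36 (edgeR adjusted p = 3.85e-06). APEX1, a DNA repair endonuclease, and OSGEP, a transfer RNA modification enzyme, are neighbours transcribed from close starts. They fell by 0.82 and 0.81 on the log2 scale in OCI-AML3 (adjusted p = 1.74e-05 and 1.58e-05), and by 0.65 and 0.50 in OCI-AML3-FLT3-ITD (adjusted p = 0.000361 and 0.00139). PARP2, a DNA damage sensor, fell in OCI-AML3 by 1.12 (adjusted p = 0.00928) and stood at -0.07 in OCI-AML3-FLT3-ITD (adjusted p = 0.884), or -0.41 (adjusted p = 0.000236) without control replicate 2. ZNF219, a zinc finger gene, was the 1 neighbour that rose, by 0.92 (adjusted p = 0.00021) and 1.25 (adjusted p = 9.65e-05). KLHL33 had at most 15 counts in any library, so no fold is given.

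**Figure D4:**
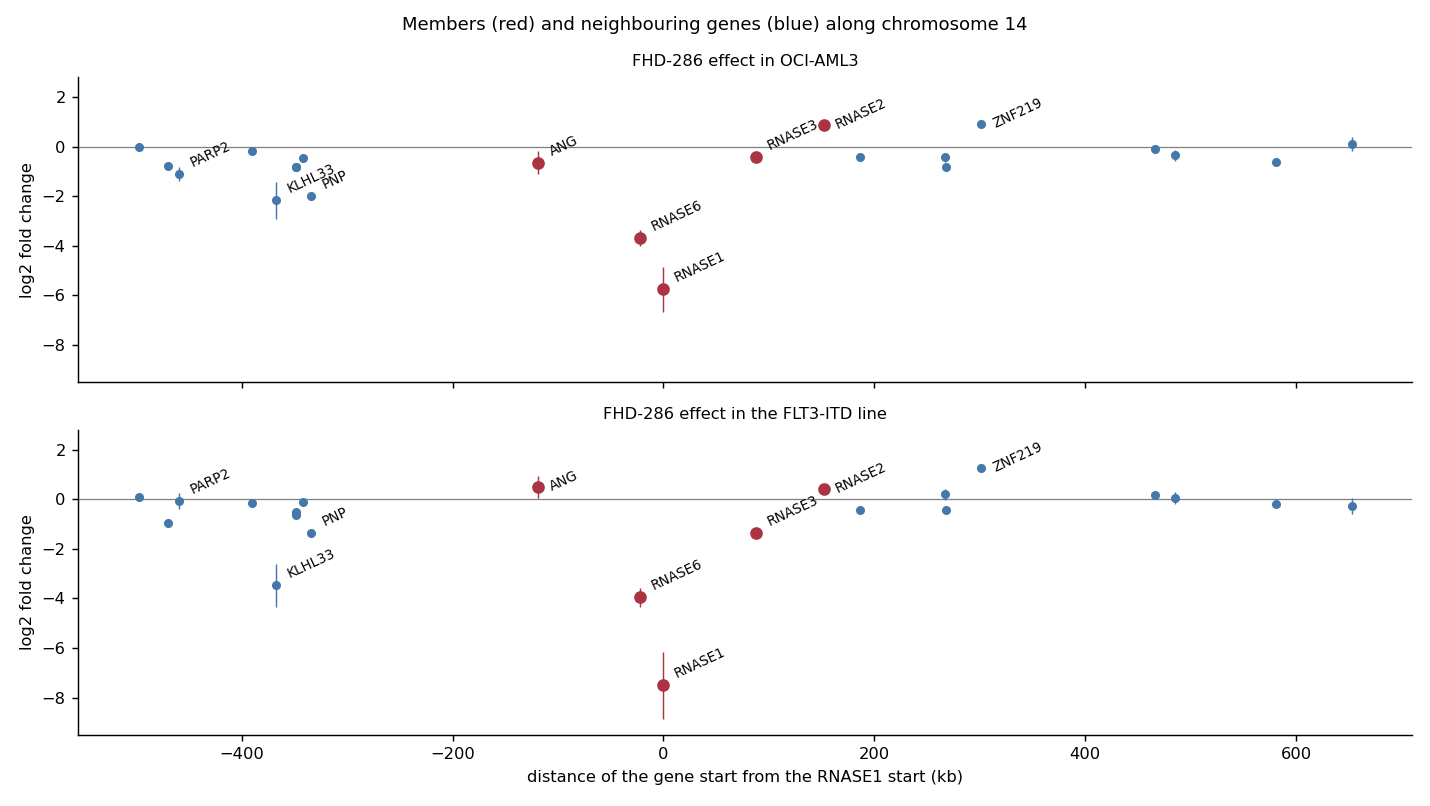
Fitted log2 fold changes with 1 SE against the distance of each gene's start from that of RNASE1, for the 5 tested members (red) and the 17 tested neighbours (blue), with names for the members and for neighbours that changed by at least 1 in either line. RNASE6 and RNASE1 lie side by side and lowest in both panels, while RNASE2, further along, lies above 0. KLHL33 rests on at most 15 counts per library.

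Among proteins that restrain or complement the secreted enzymes, the inhibitor fell too. RNH1 had 494.3 CPM in OCI-AML3 controls and 258.2 CPM with FHD-286 (log2 change -0.94, SE 0.114, edgeR adjusted p = 9.85e-05). In OCI-AML3-FLT3-ITD it had 398.3 and 216.4 CPM (log2 change -0.88, SE 0.13, edgeR adjusted p = 0.000624). RNASET2, the lysosomal ribonuclease of another family, fell by 1.23 (adjusted p = 3.06e-06) and fell by 1.33 (adjusted p = 8.37e-06). Of 17 genes of the inhibitor and other ribonucleases, 16 were tested. In OCI-AML3 3 were higher and 7 lower (median -0.20), where 41.3% of all genes were called. In OCI-AML3-FLT3-ITD 3 were higher and 2 lower, RNH1 and RNASET2 (median -0.04), a share near the 30.5% of all genes called. Without control replicate 2 the latter were 4 and 6, where 49% of all genes were called.

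Of 9 deoxyribonucleases and endolysosomal nucleases 6 were tested, with 3 higher and 2 lower in OCI-AML3 and 2 higher and 2 lower in OCI-AML3-FLT3-ITD, where 41.3% and 30.5% of all genes were called. DNASE2 and DNASE1 rose and SAMHD1 and PLD3 fell in both lines, and DNASE1L1 rose in OCI-AML3. DNASE2, the acid lysosomal enzyme that cuts DNA, had 4 to 6 counts per library in OCI-AML3 controls, equal to 0.07309 to 0.1078 CPM, and 8.588 to 10.12 CPM with FHD-286. In OCI-AML3-FLT3-ITD controls it had 0.7226, 0.05774 and 0.7243 CPM, against 14.68 and 15.47 CPM with FHD-286. SAMHD1, which degrades deoxynucleotides, fell from 218 to 53.2 CPM and from 128.7 to 56.89 CPM. Its log2 changes were -2.04 (edgeR adjusted p = 2.45e-08) and -1.18 (edgeR adjusted p = 2.84e-06), and their difference of 0.86 passed as well (edgeR adjusted p = 0.00176). DNASE1, a secreted enzyme that cuts DNA, rose by 1.11 in OCI-AML3 (adjusted p = 3.08e-05) and 0.86 in OCI-AML3-FLT3-ITD (adjusted p = 0.000511).

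Receptors of the family and sensors of RNA mostly fell or did not pass. PLXNB2, a receptor of angiogenin, had 162.8 and 118.4 CPM in OCI-AML3 (log2 change -0.46, SE 0.241, adjusted p = 0.156) and 351.6 and 347.7 CPM in OCI-AML3-FLT3-ITD (-0.02, SE 0.269, adjusted p = 0.972). It was higher in the OCI-AML3-FLT3-ITD controls than in the OCI-AML3 controls (log2 1.11, edgeR adjusted p = 0.00839). Without control replicate 2 its changes with FHD-286 passed in both lines (-0.46, adjusted p = 2.05e-06, and -0.31, adjusted p = 0.00171), where 58.8% of all genes were called in OCI-AML3. Of 16 receptors and sensors 12 were tested, with 2 higher and 6 lower in each line (medians -0.50 and -0.63), where 41.3% and 30.5% of all genes were called. Without control replicate 2, 2 were higher in each line, with 8 lower in OCI-AML3 and 10 in OCI-AML3-FLT3-ITD. In those fits 58.8% and 49% of all genes were called. The 2 that rose, named after their values were seen, were the sensor genes RIGI and EIF2AK2 in both lines. UNC93B1, the chaperone of endosomal Toll-like receptors, fell by 1.80 (adjusted p = 1.95e-06) and 1.36 (adjusted p = 5.65e-05). TLR4, the lipopolysaccharide receptor, fell by 0.88 (adjusted p = 4.24e-05) and 1.49 (adjusted p = 7.02e-06). TLR8, a sensor of RNA fragments, fell to 0.05184 to 0.1206 CPM from 0.7363 to 0.9501 CPM in OCI-AML3 (adjusted p = 0.00194). In OCI-AML3-FLT3-ITD TLR8 had 7 to 44 counts per library in controls and 1 and 2 with FHD-286 (adjusted p = 0.00797). IRF5, an interferon regulatory factor downstream of these receptors, and IFIH1, the cytosolic sensor of double-stranded RNA, fell in OCI-AML3 by 1.63 (adjusted p = 0.00586) and 1.35 (adjusted p = 0.000629). In OCI-AML3-FLT3-ITD IRF5 stood at -0.85 (adjusted p = 0.15) and IFIH1 at -0.39 (adjusted p = 0.249), and without control replicate 2 both passed (-1.26, adjusted p = 7.53e-11, and -0.64, adjusted p = 2.93e-05).

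Transcription factors of the myeloid lineage moved in different directions. Of 12 listed 11 were tested, with 5 higher and 4 lower in OCI-AML3 (CEBPB, CEBPD, RUNX1, KLF4 and GFI1 against SPI1, CEBPA, CEBPE and IRF8). In OCI-AML3-FLT3-ITD 4 were lower (SPI1, CEBPA, IRF8 and GFI1). Over all genes 41.3% and 30.5% were called in these comparisons. Without control replicate 2, 1 was higher and 7 were lower of 10 tested in OCI-AML3-FLT3-ITD, where 49% of all genes were called. RUNX1, KLF4, GFI1 and CEBPE are named after their values were seen. CEBPE was near the floor, with 22 counts summed over the 3 OCI-AML3 controls and 0 over the treated OCI-AML3 libraries. SPI1, which encodes the ETS factor PU.1, fell further in OCI-AML3-FLT3-ITD than in OCI-AML3 (difference of the log2 changes -0.78, SE 0.133, edgeR adjusted p = 0.0128). CEBPA, CEBPB and CEBPD encode C/EBP factors. CEBPB had 27.15 and 97.57 CPM in OCI-AML3 controls and treated libraries (log2 change 1.85, edgeR adjusted p = 4.24e-05) and 76.13 and 49.84 CPM in OCI-AML3-FLT3-ITD (-0.61, adjusted p = 0.0568, and -0.82, adjusted p = 8.51e-06, without control replicate 2). The difference was -2.46 (edgeR adjusted p = 0.00273). CEBPD rose in OCI-AML3 (1.04, adjusted p = 0.00116) and stood at -0.14 in OCI-AML3-FLT3-ITD (adjusted p = 0.641). CEBPA fell by 0.50 (adjusted p = 0.0279) and 1.75 (adjusted p = 8.44e-05), and IRF8, a factor of the monocyte lineage, by 1.76 (adjusted p = 4.4e-06) and 2.08 (adjusted p = 8.37e-06). A link between these factors and the RNase genes was not tested.

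Other defence genes of granules and secretions mostly fell with FHD-286. Of 16 listed 9 were tested, with 7 lower and 1 higher in each line (medians -0.81 and -1.28), where 21.5% and 14.9% of all genes were lower. The list was chosen with earlier results of these data known, so nothing is read from this count. LYZ, the lysozyme gene, fell by 3.84 (adjusted p = 8.32e-09) in OCI-AML3 and fell by 3.05 (adjusted p = 1.87e-07) in OCI-AML3-FLT3-ITD. PRTN3, MPO, ELANE and CTSG encode granule enzymes. In OCI-AML3 they had log2 changes of -3.67, -1.50, -0.92 and -0.81, and in OCI-AML3-FLT3-ITD of -3.15, -3.14, -1.07 and -1.50, each past the threshold. The 1 that rose was CAMP, the cathelicidin gene, with 0 to 1 counts in OCI-AML3 controls and 315 to 373 with FHD-286, and 0 to 11 and 208 to 232 counts in OCI-AML3-FLT3-ITD.

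Most markers of other cell types in which members of the family are known were under 1 CPM. All 8 eosinophil markers were under 1 CPM in every group, with a summed level of 0.2923 to 0.5 CPM in OCI-AML3 controls, 0.4959 to 0.5708 CPM in treated OCI-AML3, 0.3176 to 0.4534 CPM in OCI-AML3-FLT3-ITD controls and 0.2807 to 0.3845 CPM in treated OCI-AML3-FLT3-ITD. All 8 pancreatic acinar markers were under 1 CPM as well, with sums from 0.1279 to 0.6784 CPM over all groups. Of 8 endothelial markers 6 were under 1 CPM in every group, PECAM1 and EGFL7 being the exceptions, and CDH5, KDR and EMCN were at 0. The endothelial sum was 34.6 to 38.18 CPM in OCI-AML3 controls, 29.79 to 32.65 CPM in treated OCI-AML3, 24.39 to 37.75 CPM in OCI-AML3-FLT3-ITD controls and 21.93 to 23.59 CPM in treated OCI-AML3-FLT3-ITD. All 6 erythroid markers and at least 5 of 6 lymphoid markers were under 1 CPM in every group. RNASE1, RNASE2 and RNASE3 were thus read in libraries where each listed eosinophil and acinar marker averaged under 1 CPM.

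The genes whose log2 CPM followed each member most closely over the 11 libraries were ranked by Pearson's r. These libraries fall into 4 groups, so r mostly records the order of the group levels and carries no p. RNASE1 was closest to SELPLG, the P-selectin ligand (0.996), KAZN (0.996) and NOD1 (0.995), with 0.997, 0.996 and 0.994 over the 10 libraries without OCI-AML3-FLT3-ITD control replicate 2. RNASE6 was closest to IRF8 (0.995), RCSD1 (0.994) and RHEX (0.994), and these kept 0.994, 0.994 and 0.993. RNASE3 was closest to BST1 (0.991), ALKBH3 (0.985) and HOMER3 (0.982), which were also its 3 closest over the 10 libraries. RNASE2 was closest to LACTB (0.989), EPHX1 (0.986) and RNF216P1 (0.982), with 0.987, 0.988 and 0.984 over the 10. ANG had looser matches, NDC80 (0.898), MCEE (0.884) and UBE2SP1 (0.861), with 0.871, 0.854 and 0.886 over the 10. Over the 10 libraries its closest gene was CEP85 (0.959), which had 0.483 over all 11.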

How the data were processed

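The authors deposited raw counts per gene, as whole numbers that were not normalised, for 58037 Ensembl identifiers in 11 libraries. The aligner was STAR and the build hg38, per the submitters' processing notes. Total RNA was treated with DNase, per the labels' protocols. The counter, whether it used strand, and the gene models are not given in the sources used here. Reads of overlapping or antisense genes therefore cannot be told apart. Identifiers were matched to GENCODE 29 on GRCh38 (57433 found), which gave symbols, coordinates and exon lengths.

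Counts were filtered with filterByExpr of edgeR at a minimum count of 10 and a minimum total of 15, leaving 18908 genes, scaled by TMM factors and fitted with the quasi-likelihood model of edgeR 4.0.16 in R 4.3.3. It had 1 mean per group, a shared spread and 7 residual degrees of freedom. Tests were two-sided, with Benjamini-Hochberg adjustment over all genes tested and a threshold of 0.05, and a gene past it is called. SE is the absolute log2 fold change over the root of the F statistic. CPM use the TMM-scaled library sizes, and CPM per kb divides by merged exon length. The common biological coefficient of variation was 0.193, and 0.0652 when replicate 2 of the OCI-AML3-FLT3-ITD controls was left out. The fit was tested on simulated data. No replicate pair agreed within counting noise. Promoters came from the RefSeq table on GRCh38.p14, and alignments were made with Biopython 1.88.

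The members and lists were chosen with earlier results of these data known. Of each list outside the family, called genes with a log2 change of at least 1 with FHD-286 in either line were named (at most the 5 with the smallest p), with RNH1, RNASET2, PLXNB2, SPI1, APEX1 and OSGEP always named. The genes that rose among the inhibitor and other ribonucleases are not reported here by name. For likeness, the 3 genes with the highest r among those averaging at least 0 in log2 CPM were named (prior count 2). Alternatives were scaling by library totals, by upper quartile or by DESeq2 size factors; the Wald test of DESeq2 1.42.0; no filter, or a filter of 1 CPM in 3 or more libraries; a replicate block; only the groups compared; and leaving out each library.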

Additional observations from a re-analysis of the deposited data

Results flagged for a closer look

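RNASE3 is listed because its response to FHD-286 differed between the lines in a test of the difference itself. The log2 change in OCI-AML3-FLT3-ITD minus that in OCI-AML3 was -0.94 (SE 0.189, edgeR adjusted p = 0.0253). The effects were -1.38 and -0.43, and treated libraries lay below the controls in both lines. It is 1 of 5 members tested, where 3.36% of all genes passed, and the 7 libraries without which it misses the threshold are named in the report. The difference is built from changes with FHD-286 that were known when the family was chosen. Its p-value is therefore a description and not independent support. The cause of the difference was not tested.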

How the results depend on the processing

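No member's fitted change turned from one called direction to the other under any alternative run. The count of members called for the difference between the lines was 1 with the settings used, 2 with upper-quartile factors, library totals, the stricter filter or DESeq2's Wald test, and 0 to 2 when a library was left out. Genes called for that difference numbered 635, against 1441 with DESeq2 and 105 to 3177 when a library was left out. A fit of only the 2 groups compared called 1618 rather than 5767 genes for FHD-286 in OCI-AML3-FLT3-ITD, 1736 rather than 5289 between the control lines, and 9581 rather than 4916 between the treated lines, with 5 rather than 3 members in the last. Leaving out a library gave 2908 to 9140, 2914 to 9223 and 1909 to 8756 genes for these comparisons, with 2 to 4 members between the control lines and 2 to 5 between the treated lines; the highest number of genes in each came without OCI-AML3-FLT3-ITD control replicate 2. Where a library is left out of the treated OCI-AML3-FLT3-ITD group, the lone sample is assumed to vary like the other groups. Samples with the same replicate number did not pair: over 15 such pairs the correlation of deviations from group means ran from -0.257 to 0.323, with 4 over 0.1, and 3 of 11 libraries correlated best with one of their own number. With the replicate number as a block, 0 members and 349 genes were called for the difference between the lines (RNASE3 -0.97, adjusted p = 0.055), RNASE1 passed between the control lines (-2.74, adjusted p = 0.0291) and between the treated lines (-4.15, adjusted p = 0.0493), and ANG missed the threshold between the treated lines (1.62, adjusted p = 0.0551). Beyond the construction of each alternative (fewer libraries or genes), the cause was not tested. Low counts limit ANG, with 10 to 40 per library, and RNASE4, with 0 to 9. Whether reads in the exons they share with other genes were counted is not known.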
